A study of Mus musculus with 12 samples.

Results

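The 9 genes described here carry the type I interferon signal from the cell surface to the nucleus and shut it off again. They are the receptor chains Ifnar1 and Ifnar2, the kinases Jak1 and Tyk2, the transcription factors Stat2, Irf1, Irf7 and Irf9, and the feedback protein gene Usp18. They were chosen by name, with earlier results of these data known. Each symbol matched 1 gene of the 49585 in the count table, and all 9 were among the 16318 genes expressed highly enough to be tested. RNA-seq was performed on calvarial osteoblasts grown from the skull bones of C57BL/6J pups aged 3 to 5 days, with up to 3 calvariae pooled in a culture, and the pups were Bcl3-/- or their WT littermates. BCL3 is an atypical IκB protein that binds NF-κB subunits in the nucleus. All cultures received osteogenic medium with 50 µg/ml ascorbic acid and 2 mM β-glycerophosphate, and RNA was taken on day 1 or day 3 of this induction. No interferon, virus or cytokine was added according to the labels. Genotype and day together made 4 groups with 3 libraries each. The 6 cultures, 3 of each genotype, gave a library on each day. Cells were lysed for RNA, so a culture here means libraries that share a sample code, not the same cells on both days.

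Type I interferons such as IFN-β bind a receptor made of IFNAR1 and IFNAR2. TYK2 sits on IFNAR1 and JAK1 on IFNAR2, and once the chains meet, the kinases phosphorylate STAT proteins. STAT2 and IRF9 belong to the complex ISGF3, which binds interferon-stimulated response elements (ISREs) in the promoters of interferon-stimulated genes. Stat2, Irf9, Irf7 and Usp18 are such target genes themselves. IRF7 is the main activator of the interferon-α genes, IRF1 is the factor best known from the interferon-γ response, and USP18 ends signalling by displacing JAK1 from IFNAR2. In bone, interferon-β is known as a brake on osteoclast formation.

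The libraries held between 20009732 and 41953891 counts in genes. Reads per gene are given as CPM, the gene's count scaled by the library's total and corrected for library composition, when libraries are compared for 1 gene. The osteoblast markers Col1a1, Runx2 and Alpl were counted in all 12 libraries. Bcl3 itself did not separate the genotypes on day 1. It was counted at 18.0, 21.8 and 17.8 CPM in day 1 WT and at 17.5, 19.7 and 19.2 CPM in the libraries labelled Bcl3-/-, a log2 fold change of -0.03 (SE 0.12, adjusted p = 0.887 in edgeR). On day 3 it stood at 14.8, 15.9 and 12.8 CPM in WT and at 10.2, 9.72 and 8.31 CPM in the libraries labelled Bcl3-/- (log2 fold change -0.62, SE 0.12, edgeR adjusted p = 0.00863). The counts cover the whole gene and do not show which part of it is deleted, so every genotype below is the one on the label. Macrophage genes were present in every library, with all 17 markers counted in all 12. Their summed level on day 1 was 349 to 554 CPM in WT and 405 to 440 CPM in Bcl3-/-, and on day 3 it was 812 to 1217 CPM in WT and 513 to 992 CPM in Bcl3-/-. Lymphocyte markers summed to at most 5.86 CPM in a library. The 7 markers of plasmacytoid dendritic cells, known as strong interferon producers, summed to 117 to 141 CPM in day 1 WT and to 182 to 262 CPM in day 1 Bcl3-/-. Nearly all of this was Tcf4 and Bst2, both of which other cells also express, and Siglech reached at most 10 counts in a library.

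Levels of different genes were compared on the deposited FPKM, which are scaled by transcript length. Jak1 was the most highly expressed of the 9 genes in every group, with a mean of 109 FPKM ± 4.86 (SD, n = 3) in day 1 WT and 91.9 FPKM ± 7.23 (SD, n = 3) in day 3 WT. Tyk2, the partner kinase, was among the lowest throughout, between 7.37 and 8.20 FPKM as group means. The receptor chains lay between them, with Ifnar1 at 28.3 FPKM ± 1.64 and Ifnar2 at 28.6 FPKM ± 3.06 in day 1 WT (SD, n = 3), values that overlapped. The order of the other genes changed with the group. In day 1 WT, Irf7 was the lowest of the 9 at 4.71 FPKM ± 3.98 and Usp18 the next lowest at 6.80 FPKM ± 5.15 (SD, n = 3). In day 3 WT, Usp18 was second to Jak1 at 71.2 FPKM ± 11.8 and Irf7 followed at 58.8 FPKM ± 6.79 (SD, n = 3). Irf9 (50.4 FPKM) and Stat2 (50.0 FPKM) came next in day 3 WT, and the libraries of these neighbours overlapped. Irf1 moved less, from 19.2 FPKM in day 1 WT to 28.7 FPKM in day 3 WT.

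**Figure D1:**
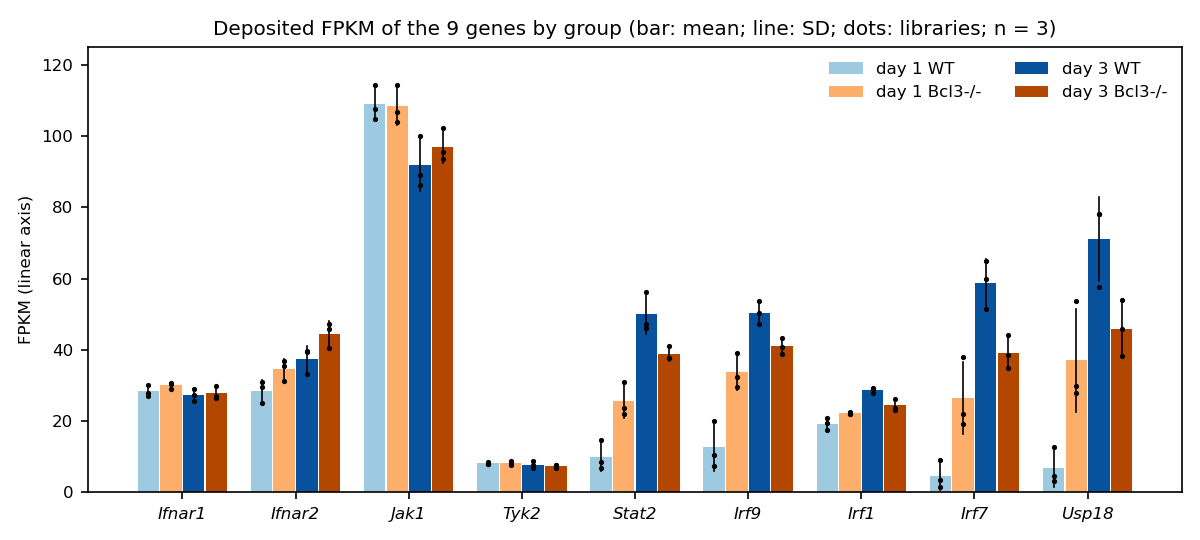
Deposited FPKM (linear axis) of the 9 genes in the 4 groups. Bars are means, vertical lines the SD and dots the 3 libraries of a group. Jak1 is the tallest in every group and Tyk2 stays near 8, while Irf7 rises from a mean of 4.71 in day 1 WT to 58.8 in day 3 WT.

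On day 1 the genes for the ISGF3 subunits STAT2 and IRF9 and for IRF7 and USP18 were higher in the libraries labelled Bcl3-/-, while Irf1 and the receptor and kinase genes did not pass the test. Stat2, Irf9, Irf7 and Usp18 were called higher (edgeR adjusted p under 0.05), which is 4 of the 9, where 9.03% of all genes tested were called higher and 15.3% were called in either direction. None of the 9 was called lower, against 6.26% of all genes. Log2 fold changes written with ± carry their standard error (SE). The median log2 fold change was 0.23 over the 9 genes and 0.00 over all genes tested. In bulk RNA, fewer cells of a type and less RNA per cell cannot be told apart, and this holds for every difference given here.

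Stat2 (chr10:128270559-128292849, + strand, GRCm38) encodes the STAT protein used almost solely by interferon. It was counted at 28.5, 35.6 and 60.8 CPM in day 1 WT and at 91.8, 100.1 and 132 CPM in day 1 Bcl3-/-. The groups did not overlap, and the log2 fold change was 1.37 (SE 0.23, adjusted p = 0.00246 in edgeR), or 2.59-fold with a 95% interval of 1.84 to 3.63. Irf9 (chr14:55603571-55610030, + strand) encodes the DNA-binding subunit of ISGF3. Its values were 15.6, 22.7 and 43.2 CPM in day 1 WT and 64.3, 70.7 and 85.2 CPM in day 1 Bcl3-/-, again without overlap. The log2 fold change of Irf9 was 1.43 (SE 0.26, adjusted p = 0.00446 in edgeR).

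Irf7 (chr7:141262706-141266481, - strand) and Usp18 (chr6:121245906-121270917, + strand) differed most. Irf7 was counted at 2.44, 4.96 and 14.4 CPM in day 1 WT and at 30.0, 33.9 and 60.0 CPM in day 1 Bcl3-/-. The lowest Bcl3-/- library thus lay above the highest WT library, and the log2 fold change was 2.47 (SE 0.46, adjusted p = 0.00429 in edgeR), or 5.54-fold with a 95% interval of 2.79 to 11.0. Usp18 stood at 4.66, 7.40 and 20.9 CPM in day 1 WT and at 45.1, 48.1 and 91.4 CPM in day 1 Bcl3-/-. Its log2 fold change was 2.46 (SE 0.44, adjusted p = 0.00375 in edgeR), also with no overlap. In both groups the library of replicate 3 was the highest for Stat2, Irf9, Irf7 and Usp18. Without replicate 3 of day 1 WT the log2 fold change rose to 3.41 for Irf7 and to 3.32 for Usp18, and all 4 genes stayed under the threshold in each of the 23 alternative analyses.

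The spread among the 3 day 1 WT libraries was itself wide for these genes. The SD of log2 CPM was 1.27 for Irf7, 1.10 for Usp18, 0.74 for Irf9 and 0.56 for Stat2, where the median gene had 0.15. In day 3 WT the same genes had an SD of 0.19, 0.26, 0.08 and 0.16, and the median gene had 0.17. The cultures thus stood further apart on day 1 than on day 3 for these 4 genes.

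Irf1 (chr11:53770014-53778374, + strand) showed a smaller difference. Its levels were 34.6, 32.0 and 38.3 CPM in day 1 WT and 40.3, 40.2 and 42.8 CPM in day 1 Bcl3-/-. These did not overlap, but the log2 fold change of 0.23 (SE 0.08) missed the threshold (edgeR adjusted p = 0.0771), and it passed without replicate 3 of day 1 WT (log2 fold change 0.31, adjusted p = 0.0282, where the range over all alternatives was 0.0282 to 0.292). Ifnar2 (chr16:91372783-91405589, + strand), the chain that binds interferon most tightly, was similar. It was counted at 31.1, 32.9 and 34.6 CPM in day 1 WT and at 38.0, 37.1 and 39.6 CPM in day 1 Bcl3-/- (log2 fold change 0.22 ± 0.08, edgeR adjusted p = 0.0776). With these, 6 of the 9 genes were higher in Bcl3-/- on day 1 with no overlap between the groups, a pattern shown by 19.4% of all genes tested.

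The remaining receptor chain and the kinases overlapped between the genotypes. Ifnar1 (chr16:91485238-91507441, + strand) stood at 107, 96.0 and 101 CPM in day 1 WT and at 105, 112 and 112 CPM in day 1 Bcl3-/-. Jak1 (chr4:101152367-101265282, - strand) was counted at 499, 437 and 461 CPM in day 1 WT and at 431, 480.4 and 449.5 CPM in day 1 Bcl3-/-. Tyk2 (chr9:21104068-21131243, - strand) stood at 33.2, 32.8 and 33.8 CPM in day 1 WT and at 32.0, 38.0 and 36.6 CPM in day 1 Bcl3-/-. The 95% intervals of the log2 fold change were -0.05 to 0.28 for Ifnar1, -0.25 to 0.17 for Jak1 and -0.13 to 0.32 for Tyk2. Changes as large as those of Stat2 or Irf7 lay outside these intervals. The reads carry no strand, and 9.46% of the exon bases of Ifnar2 are shared with Gm21970 and 8.07% of those of Tyk2 with the antisense gene 1700084C06Rik, which limits how exactly these genes can be counted.

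**Figure D2:**
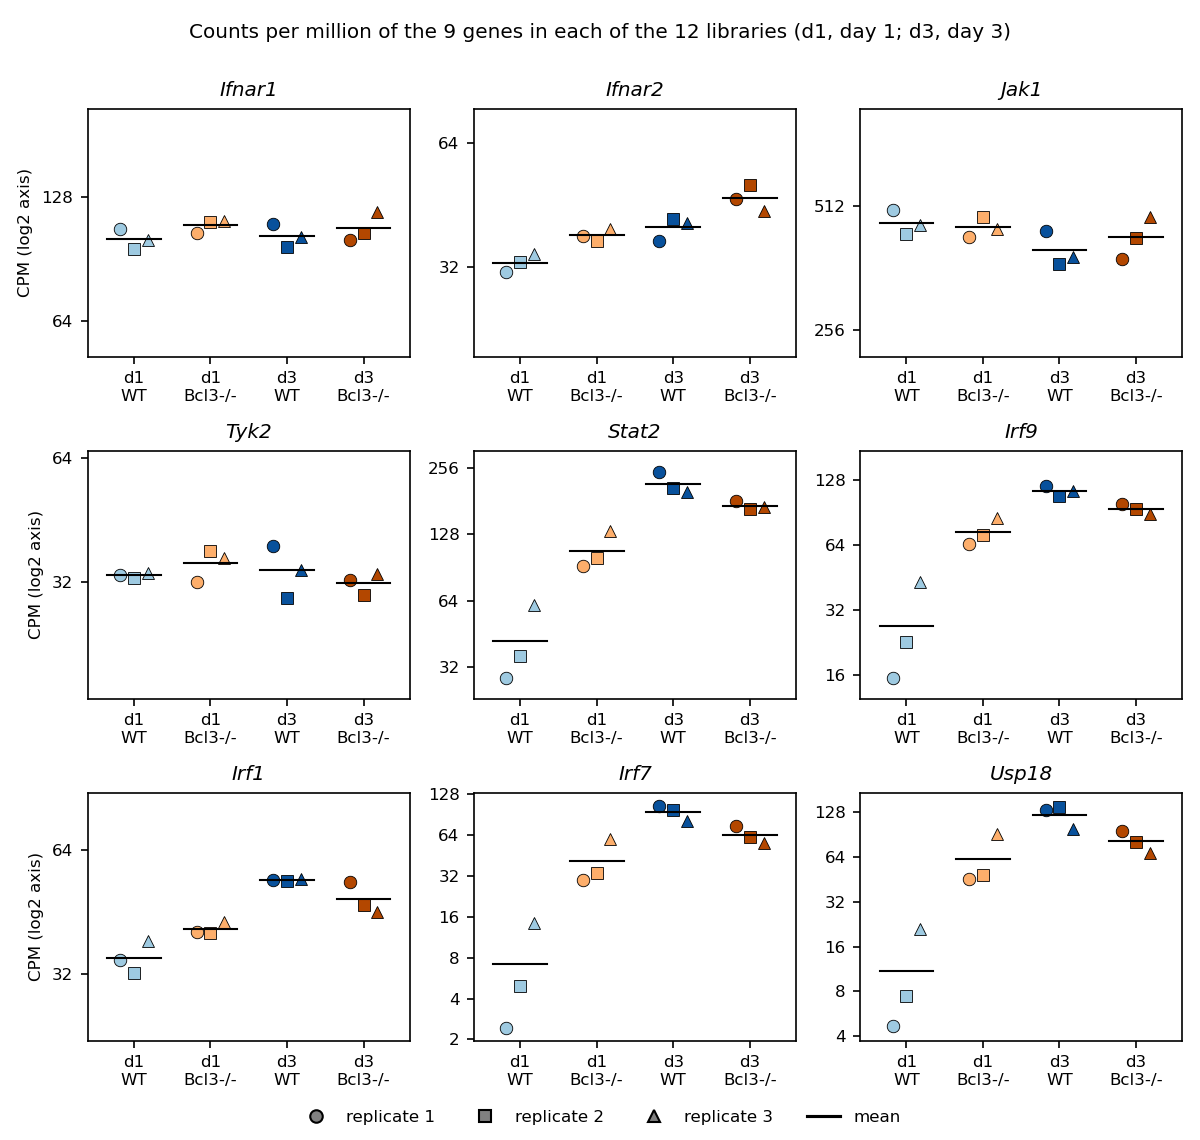
CPM (log2 axis) of the 9 genes in each of the 12 libraries, with replicates as symbols and group means as lines. Stat2, Irf9, Irf7 and Usp18 are lowest in day 1 WT, with Irf7 at 2.44 to 14.4 CPM, while Ifnar1, Jak1 and Tyk2 overlap across the groups.

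The promoters were examined for the sequences that interferon-activated and NF-κB factors bind. RefSeq start sites (GRCm38.p6) were listed for 8 of the 9 genes, all but Usp18, and the window ran from 250 bases before to 50 bases after the start, on both strands. The ISRE core was searched as GAAA, any 2 bases and GAAA again, the STAT dimer site (GAS) as TTCNNNGAA, and the NF-κB site by its consensus. Stat2 held an ISRE match, read on the strand opposite to the gene, 222 to 213 bases before the start, where 3.44% of 32851 promoters held 1 or more. Irf1 held a GAS match 90 to 82 bases before its start and an NF-κB match 13 to 4 bases before it, and Ifnar2 held a GAS match 214 to 206 bases before its start. A further GAS match spanned the start of Ifnar1. GAS matches occurred in 8.30% and NF-κB matches in 4.51% of all promoters, and no match overlapped another. The windows of Jak1, Tyk2, Irf7 and Irf9 held none of these letters. The RefSeq starts were not always those of the gene positions printed in this report. For Irf9 the printed start, 55603571, lay before both windows, which began at 55603735 and 55604329. For Stat2 the RefSeq start was 128270498 and the printed start 128270559. Sequence around the printed starts was not searched separately. The matched stretches are shown for the genes with a match upstream of the start, Stat2, Irf1 and Ifnar2. The match is in capitals, with up to 20 flanking bases.
Stat2 with the ISRE match, chr10:128270256-128270305, + strand: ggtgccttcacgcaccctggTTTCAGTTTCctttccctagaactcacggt
Irf1 with the GAS match, chr11:53769904-53769952, + strand: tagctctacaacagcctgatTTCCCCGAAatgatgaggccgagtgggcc
Irf1 with the NF-κB match, chr11:53769981-53770013, + strand: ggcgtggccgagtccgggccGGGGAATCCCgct
Ifnar2 with the GAS match, chr16:91372549-91372597, + strand: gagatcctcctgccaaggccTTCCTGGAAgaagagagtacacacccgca

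**Figure D3:**
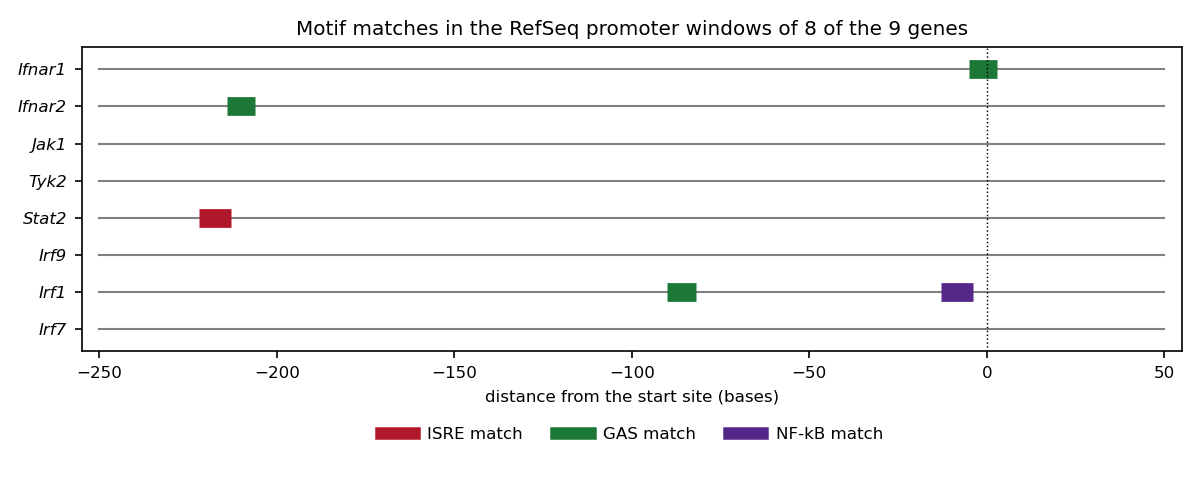
Position of the ISRE, GAS and NF-κB matches in the promoter windows of 8 genes, as distance in bases from the RefSeq start site, which is 0. Irf1 and Irf9 have 2 listed start sites, and the matches of Irf1 belong to the upstream one. The Stat2 match lies 222 to 213 bases before the start and both Irf1 matches lie within the last 90 bases before it.

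From day 1 to day 3, the RNA of most of the cascade rose in the WT cultures. Ifnar2, Stat2, Irf1, Irf7, Irf9 and Usp18 were called higher on day 3, 6 of the 9 genes, where 20.6% of all genes tested were called higher and 38.5% were called in either direction. None was called lower, against 17.9% of all genes. Irf7 rose the most, to 105, 98.7 and 81.4 CPM, a log2 fold change of 3.67 (SE 0.47, adjusted p = 9.96e-05 in edgeR). Usp18 rose to 132, 138 and 98.7 CPM (log2 fold change 3.46 ± 0.45, edgeR adjusted p = 0.000119). These are increases of 12.8-fold and 11.0-fold, and they became 4.60 and 4.30 on the log2 scale without replicate 3 of day 1 WT. Stat2 rose to 246, 208 and 199.6 CPM (log2 fold change 2.38 ± 0.23, edgeR adjusted p = 1.87e-05). Irf9 rose to 119, 107 and 114 CPM (log2 fold change 2.05 ± 0.27, edgeR adjusted p = 0.000115). For all 4 genes the day 3 WT libraries lay far above those of day 1 WT.

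Irf1 and Ifnar2 rose less in WT. Irf1 reached 53.9, 53.8 and 54.5 CPM, the least spread of the 9 genes in any group, with a log2 fold change of 0.63 (SE 0.08, adjusted p = 0.000112 in edgeR). Ifnar2 reached 37.2, 41.9 and 41.1 CPM (log2 fold change 0.28 ± 0.08, edgeR adjusted p = 0.0116). The call of Ifnar2 was lost without replicate 1 of day 1 WT (adjusted p = 0.0904) or replicate 2 (adjusted p = 0.0618), and its adjusted p was as low as 0.00547 in other alternatives. Jak1 stood at 444, 370.2 and 385 CPM in day 3 WT, a log2 fold change of -0.22 that missed the threshold (SE 0.10, adjusted p = 0.0895 in edgeR). With the culture as a replicate block, which pairs the 2 libraries of a culture, Jak1 passed it (log2 fold change -0.22, adjusted p = 0.0282). It also passed without replicate 1 of day 3 WT (log2 fold change -0.30, adjusted p = 0.0316), and its adjusted p ran from 0.0179 to 0.258 over all alternatives. Ifnar1 at 110.1, 96.9 and 103 CPM and Tyk2 at 39.1, 29.3 and 34.3 CPM overlapped with day 1 WT, with log2 fold changes of 0.03 and 0.04.

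In the libraries labelled Bcl3-/- fewer of the genes passed the test over the same days. Ifnar2, Stat2 and Irf1 were called higher on day 3, 3 of the 9 genes, where 16.2% of all genes tested were called higher and 33.4% were called in either direction. None was called lower, against 17.2% of all genes. Stat2 was counted at 182, 168 and 170.4 CPM in day 3 Bcl3-/- (log2 fold change 0.68 ± 0.22, edgeR adjusted p = 0.0324). Ifnar2 stood at 46.9, 50.9 and 44.0 CPM (log2 fold change 0.30 ± 0.08, edgeR adjusted p = 0.00962). Irf1 stood at 53.3, 47.1 and 45.2 CPM (log2 fold change 0.24 ± 0.08, edgeR adjusted p = 0.0391). The last of these calls was marginal, since Irf1 missed the threshold with the culture as a replicate block (adjusted p = 0.0511). The call of Irf1 was also lost without replicate 1, 2 or 3 of day 1 Bcl3-/- (adjusted p = 0.103, 0.112 and 0.0571), without replicate 1 or 2 of day 3 Bcl3-/- (adjusted p = 0.163 and 0.0611) and without replicate 3 of day 3 WT (adjusted p = 0.0535). That of Stat2 was lost without replicate 1 or 2 of day 1 Bcl3-/- (adjusted p = 0.113 and 0.103) and without replicate 1, 2 or 3 of day 3 Bcl3-/- (adjusted p = 0.0731, 0.0646 and 0.0537). Over all alternatives the adjusted p ran from 0.0233 to 0.251 for Irf1 and from 0.00249 to 0.132 for Stat2.

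The genes that rose most in WT did not pass the test in Bcl3-/-. Irf7 was counted at 75.3, 62.5 and 56.6 CPM in day 3 Bcl3-/- (log2 fold change from day 1 of 0.65 ± 0.42, edgeR adjusted p = 0.253). Usp18 stood at 95.9, 80.7 and 68.2 CPM (log2 fold change 0.41 ± 0.41, edgeR adjusted p = 0.473). Both overlapped with day 1 Bcl3-/-. Irf9 stood at 98.4, 93.2 and 88.7 CPM, all above its day 1 values, with a log2 fold change of 0.35 (SE 0.26, adjusted p = 0.323 in edgeR). It passed the test when only the 6 Bcl3-/- libraries were fitted (adjusted p = 0.0419, in a range of 0.0419 to 0.602 over all alternatives). Ifnar1 (101, 105 and 118 CPM), Jak1 (381, 426 and 481 CPM) and Tyk2 (32.4, 29.8 and 33.4 CPM) overlapped with day 1 Bcl3-/-.

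Followed culture by culture, the rise was present in every WT culture but differed in size. Irf7 was 43.1, 19.9 and 5.67 times higher on day 3 than on day 1 in WT cultures 1, 2 and 3. In the cultures labelled Bcl3-/- the ratios for Irf7 were 2.51, 1.85 and 0.943. Culture 3 was the one with the smallest rise in each genotype, and the one with the highest day 1 value. Usp18 gave ratios of 28.4, 18.6 and 4.72 in WT and of 2.13, 1.68 and 0.746 in Bcl3-/-. Stat2 gave ratios of 8.63, 5.85 and 3.28 in WT and of 1.98, 1.68 and 1.29 in Bcl3-/-. For each of these genes the smallest ratio in WT was above the largest in Bcl3-/-, and the same was true of Irf9, with 2.63 to 7.68 in WT and 1.04 to 1.53 in Bcl3-/-. For Irf1 the ratios were 1.42 to 1.68 in WT and 1.06 to 1.32 in Bcl3-/-, also without overlap. The share of all genes tested with ratios separated in this way was not counted. Cultures of different genotype share only a replicate number.

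**Figure D4:**
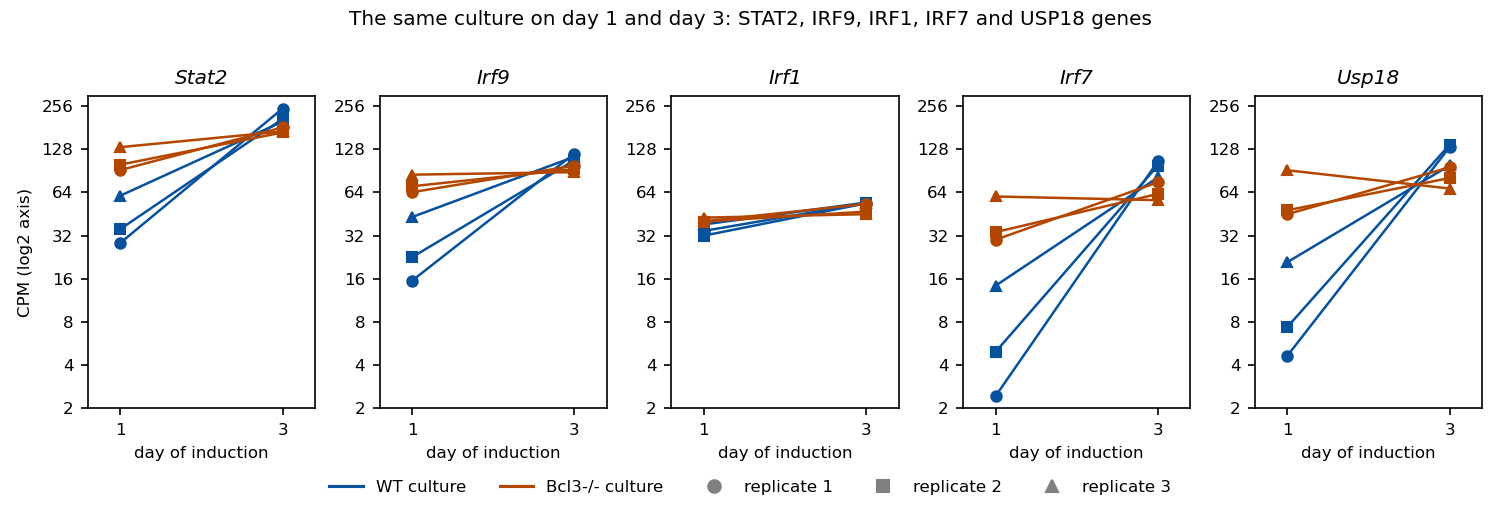
CPM (log2 axis) of Stat2, Irf9, Irf1, Irf7 and Usp18 on day 1 and day 3, with a line for each of the 6 cultures. WT lines (blue) start apart and rise steeply, from 2.44 to 105 CPM for Irf7 in culture 1, whereas Bcl3-/- lines (orange) start higher and are flatter, and culture 3 falls slightly for Irf7 and Usp18.

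The difference between the genotypes in the change over time was tested as an interaction. Stat2, Irf7, Irf9 and Usp18 were called lower, meaning that they rose less in Bcl3-/- than in WT, 4 of the 9 genes, where 0.95% of all genes tested were called lower and 1.12% were called in either direction. The interaction was -3.05 on the log2 scale for Usp18 (SE 0.60, adjusted p = 0.0357 in edgeR) and -3.02 for Irf7 (SE 0.61, adjusted p = 0.0396 in edgeR). It was -1.70 for Stat2 (SE 0.31, adjusted p = 0.0335 in edgeR) and -1.70 for Irf9 (SE 0.37, adjusted p = 0.0499 in edgeR). The value for Irf1 was -0.39 (SE 0.12, adjusted p = 0.163 in edgeR), and those of Ifnar1, Ifnar2, Jak1 and Tyk2 lay between -0.20 and 0.14 without passing the test. These calls were fragile. In edgeR none of the 9 genes was called in 10 of the 12 analyses that left out 1 library, and limma on log2(FPKM + 1) without a filter on FPKM called none. The 4 calls were kept without replicate 3 of day 1 WT, where Irf7 reached -3.94 and Usp18 -3.88, and 3 were kept without replicate 1 of day 3 Bcl3-/-. With the culture as a replicate block all 4 were called. Over the 21 alternatives, Stat2, Irf7 and Usp18 were each under the threshold in 9, DESeq2 among them, and Irf9 in 5. Irf9, the nearest to the threshold, missed it with another scaling of the libraries (RLE factors, adjusted p = 0.0507), and its adjusted p ran from 6.73e-05 to 0.181 over all alternatives. The day 1 difference between genotypes and this interaction share the day 1 libraries and are not independent of each other.

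**Figure D5:**
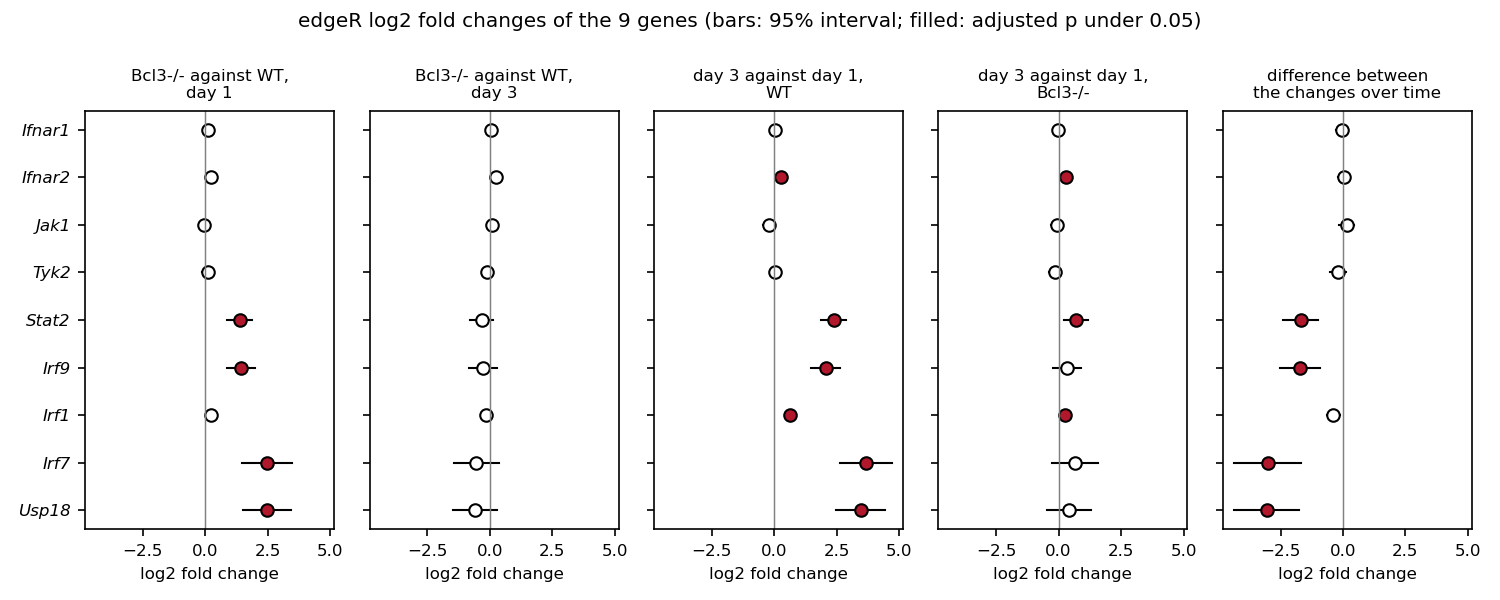
Log2 fold changes (x axis) of the 9 genes in 5 comparisons, with 95% intervals as bars, which are narrower than the symbol for some genes, and filled symbols where the edgeR adjusted p was under 0.05. Stat2, Irf9, Irf7 and Usp18 are filled for the genotypes on day 1, for time in WT and for the interaction (with Stat2 also for time in Bcl3-/-), and no gene is filled for the genotypes on day 3.

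On day 3 none of the 9 genes passed the test between the genotypes. None was called in edgeR, where 10.4% of all genes tested were (4.78% higher and 5.6% lower). Of the 9, 1 (Ifnar2) had an unadjusted p under 0.05. DESeq2 called Ifnar2 higher and none of the others. Usp18 had a log2 fold change of -0.59 (SE 0.41, adjusted p = 0.391 in edgeR) and Irf7 of -0.55 (SE 0.41, adjusted p = 0.434 in edgeR). Stat2 (-0.33), Irf9 (-0.28) and Irf1 (-0.16) also had values below 0. The libraries of these 5 genes did not overlap, with every Bcl3-/- library under every WT library, a pattern shown by 15.6% of all genes tested. The gaps were small in places, such as 53.3 against 53.8 CPM for Irf1 and 95.9 against 98.7 CPM for Usp18. The 95% interval of the fold ran from 0.366 to 1.27 for Irf7 and from 0.571 to 1.11 for Stat2, so a level down to 0.366 times that of WT for Irf7, or 0.571 times for Stat2, lay within the intervals. Ifnar2 lay the other way, with all Bcl3-/- libraries above all WT libraries (log2 fold change 0.24 ± 0.08, edgeR adjusted p = 0.0688), and it passed without replicate 3 of day 3 Bcl3-/- (log2 fold change 0.29, adjusted p = 0.0443) and in DESeq2 (log2 fold change 0.24, adjusted p = 0.0417), within a range of 0.0417 to 0.284 over all alternatives. That direction was shown by 13.1% of all genes tested.

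Ordered by mean CPM, Stat2, Irf1, Irf7, Irf9 and Usp18 had the same sequence of groups. The highest was day 3 WT, then Bcl3-/- on day 3, Bcl3-/- on day 1 and, lowest, day 1 WT. All neighbours in this order were free of overlap for Stat2, Irf1 and Irf9. The share of all genes tested with this order was not counted, so how unusual it is cannot be said. For Irf7 and Usp18, day 3 Bcl3-/- and day 1 Bcl3-/- overlapped. Measured between the means of day 1 WT and day 3 WT on the log2 scale, day 1 Bcl3-/- stood 58.3% of the way for Stat2, 68.9% for Irf7, 71.0% for Irf9 and 71.8% for Usp18. This position was not computed for Irf1, whose WT means lay closer together (5.13 and 5.76 log2 CPM). The positions carry no interval, and the SD of log2 CPM in day 1 WT was 1.27 for Irf7 and 1.10 for Usp18. Ifnar2 was ordered by genotype as well as by day, highest in day 3 Bcl3-/- and lowest in day 1 WT, with the groups between them overlapping. The group means of Ifnar1, Jak1 and Tyk2 had no neighbours that were free of overlap.

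Markers of other cells moved with some of these comparisons. Macrophages are immune cells that also carry this pathway. On day 1 none of the 17 macrophage markers was called between the genotypes, with a median log2 fold change of -0.07, and their summed level overlapped. Over time in WT 13 of the 17 were called higher (median log2 fold change 1.21), where 20.6% of all genes tested were. In Bcl3-/- 10 were called higher and 1 lower (median 0.69), where the shares of all genes were 16.2% and 17.2%. On day 3, 2 of the 17 were called lower in Bcl3-/- (median -0.66), against 5.6% of all genes. Fibroblast and tendon markers moved with genotype on day 1, where 5 of 8 were called higher in Bcl3-/- and 1 lower. Of all genes tested, 9.03% were called higher on day 1 and 6.26% lower. The summed level of these markers was 196 to 286 CPM in day 1 WT and 408 to 444 CPM in day 1 Bcl3-/-. The most highly counted, Tnmd, stood at 109 to 180 CPM in day 1 WT and 222 to 273 CPM in day 1 Bcl3-/-. Scx went the other way, with 26.2 to 29.7 CPM in day 1 WT and 14.6 to 19.8 CPM in day 1 Bcl3-/-. Log2 fold changes were 2.73 for Col14a1, 2.48 for Dpt and 2.98 for Pi16, though Pi16 reached at most 1.09 CPM on day 1. Over time 7 of these 8 rose in WT and 6 in Bcl3-/-, and on day 3, 4 were called higher in Bcl3-/- and 1 lower. Of 12 osteoblast markers 5 were called higher on day 1, Alpl (1.22) and Col1a1 (0.47) among them, and 1 lower, Sp7 (-0.92). Of the 4 plasmacytoid dendritic cell markers tested, 1 was called on day 1, Bst2, which interferons also induce (log2 fold change 2.37, 9.77 to 35.5 CPM in WT and 68.5 to 148 CPM in Bcl3-/-). The part of these cells in the differences of the 9 genes was not tested.

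The rest of the pathway was followed in lists of its other parts. Of 21 interferon genes of types I, II and III, none was expressed highly enough to be tested, and 15 had no count in any of the 12 libraries. A count of 0 allows up to 3 counts, which is 0.0715 to 0.150 CPM depending on the library. Ifnb1, the gene of IFN-β, was counted 0, 0 and 1 times in day 1 WT and 2, 5 and 2 times in day 1 Bcl3-/-. On day 3 it was counted 1, 3 and 1 times in WT and 0, 0 and 1 times in Bcl3-/-. No difference in Ifnb1 can be read from counts this low. Ifng was counted at most 4 times in a library.

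Among the 4 other receptor chains none was called between the genotypes on either day (median log2 fold change -0.08 on both). Ifngr1, the ligand-binding chain of the interferon-γ receptor, fell over time in both genotypes, with a log2 fold change of -0.43 in WT (SE 0.07, adjusted p = 0.000553 in edgeR) and of -0.40 in Bcl3-/- (SE 0.07, adjusted p = 0.00142 in edgeR). Its partner Ifngr2 rose in Bcl3-/- (0.35, SE 0.08, edgeR adjusted p = 0.00586) and was not called in WT (0.14, SE 0.08, edgeR adjusted p = 0.187). Il10rb, a chain shared by the receptors of interferon-λ and interleukin-10, rose in both (0.24 in WT and 0.27 in Bcl3-/-). Of the kinases, Jak2 was not called in any comparison, and Jak3 was called only over time in Bcl3-/- (log2 fold change -0.45 ± 0.13, edgeR adjusted p = 0.0197). These were changes of a smaller size than those of Stat2 or Irf7.

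Of 5 other STAT genes followed, 1 was called higher in Bcl3-/- on day 1, Stat5a (log2 fold change 0.29 ± 0.08, edgeR adjusted p = 0.0222), and none on day 3. In WT 2 of the 5 rose over time and 1 fell, where 20.6% of all genes tested were called higher and 17.9% lower. Stat3 stood at 0.26, Stat5a at 0.30 and Stat5b at -0.20 on the log2 scale, and in Bcl3-/- none of the 5 was called. Of the 6 other IRF genes none was called between the genotypes. Irf2, whose protein competes with IRF1 for its sites, rose over time in WT (log2 fold change 0.42 ± 0.09, edgeR adjusted p = 0.00318) and in Bcl3-/- (0.33, SE 0.09, edgeR adjusted p = 0.0145). Irf4, a factor of immune cells, fell in Bcl3-/- (-3.16, SE 0.57, edgeR adjusted p = 0.00134). Its level was low, at 1.01 to 2.21 CPM in day 1 Bcl3-/- and 0.05 to 0.39 CPM in day 3 Bcl3-/-. Irf3, the factor that starts Ifnb1 transcription, stayed uncalled in all 5 comparisons, with log2 fold changes from -0.06 to 0.13.

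Usp18 was compared with 15 other feedback and inhibitory genes of the pathway. On day 1, 3 were called higher in Bcl3-/- and 1 lower, where 9.03% of all genes tested were called higher and 6.26% lower. Isg15, which encodes the ubiquitin-like protein that USP18 removes from its targets, differed most, with a log2 fold change of 2.81 (SE 0.58, adjusted p = 0.00793 in edgeR), close to the 2.46 of Usp18. Socs3 (0.75, SE 0.16, edgeR adjusted p = 0.00815) and Cish (0.48, SE 0.13, edgeR adjusted p = 0.0305), inhibitors of cytokine receptors, were also higher, and Pias2 was lower (-0.26, SE 0.07, edgeR adjusted p = 0.0347). None of the 15 was called on day 3. Over time in WT 3 of the 15 rose and 1 fell, where 20.6% of all genes tested were called higher and 17.9% lower. Isg15 stood at 3.93 on the log2 scale. In Bcl3-/- 2 of the 15 rose and 1 fell, where the shares of all genes were 16.2% and 17.2%. The gene that fell was Socs3 (-0.89, SE 0.16, edgeR adjusted p = 0.00125). Socs1, an inhibitor of JAK kinases that interferons induce, was not called in any comparison, with log2 fold changes of 0.29 between the genotypes on day 1 and 0.31 over time in WT. The interaction was not called for any of the 15, Isg15 included (-3.20, SE 0.78, edgeR adjusted p = 0.0831).

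The genes that ISGF3 switches on were read beside the 4 inducible members. Their list was also chosen with earlier results of these data known. Of 41 interferon-stimulated effector genes tested, 39 were called higher in Bcl3-/- on day 1, against 9.03% of all genes, and none lower. The median log2 fold change was 1.91, between the 1.37 of Stat2 and the 2.47 of Irf7. Over time 41 rose in WT (median 3.25) and 9 in Bcl3-/- (median 0.64), where 20.6% and 16.2% of all genes tested were called higher. In the interaction 26 were called lower (median -2.24), against 0.95% of all genes. On day 3 none of the 41 was called higher and 2 were called lower (median -0.36). Their summed level was 317, 379 and 745 CPM in the day 1 WT libraries and 1273, 1341 and 2081 CPM in the day 1 Bcl3-/- libraries. Replicate 3 was the highest of each day 1 group here too. An ISRE match lay in the promoters of 18 of the 31 effector genes with a listed start site (58.1%), against 3.90% of all genes tested and 1 of the 8 members.

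The genes with the most similar pattern to each inducible member were found by centring log2 CPM on each gene's mean and taking the root mean square difference over the 12 libraries, among 11982 genes, with the 9 members left out of the search. For Irf7 the nearest were Igtp (0.18), Phf11d (0.18) and Dhx58 (0.19), where the median of all genes was 1.68. For Usp18 they were the same 3 genes, Igtp (0.16), Dhx58 (0.20) and Phf11d (0.23). Stat2 was nearest to Dtx3l (0.14), Samd9l (0.15) and Trim21 (0.15), and Dtx3l (0.13) and Trim21 (0.19) also lay close to Irf9. Among the members the closest pairs were Ifnar1 with Tyk2 (0.10) and Ifnar1 with Jak1 (0.10), all of which varied little. Among the inducible members Irf7 with Usp18 (0.17) and Stat2 with Irf9 (0.19) were the closest pairs, the former closer than Irf7 with any gene of the search, and Irf7 and Jak1 were 1.74 apart. Irf1 was nearest to Anxa4 (0.05), Nub1 (0.06) and Fes (0.08), and its small changes make many genes lie close to it. These values describe the 12 libraries, which share cultures between the days.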

How the data were processed

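Poly(A) RNA of 6 cultures, each taken on 2 days, was sequenced from SMART-Seq v4 libraries without strand. The deposited counts hold the unscaled read number of each gene. The authors trimmed reads with Trim Galore, aligned them to GRCm38 by TopHat2 and counted them by HTSeq (versions not given in the sources used here). The deposited FPKM are values that the authors made with Cufflinks, scaled by transcript length and depth. Entries of reads at no gene (5 entries, 12.3 to 14.7% of reads) were removed from the counts. Entries with several values (49) and 1 stray header were removed from the FPKM. No library was a copy of another in 66 pairs. Depth was 20009732 to 41953891 counts per library. All 12 libraries were fitted with edgeR 4.0.16 (R 4.3.3), TMM factors (0.951 to 1.05), its filter on low counts and the quasi-likelihood test, with Benjamini-Hochberg adjustment over 16318 genes and a threshold of 0.05. The fit was also run on simulated data with independent libraries and known changes, without a link between the days of a culture. Its outcome is not given here and is not used for the calls. The study fitted 4 groups with DESeq2, which is an alternative here (1.42.0), beside limma 3.58.1 on log2(FPKM + 1), other scalings and filters, blocks and each library left out. The libraries of a culture on the 2 days share a sample code, so the culture was taken to pair them (correlation of deviations 0.24 to 0.33 in WT and -0.16 to -0.02 in Bcl3-/-). Fold changes come from fitted means, CPM from the TMM-scaled libraries. The SE was calculated as the absolute log2 fold change divided by the square root of the F value of the quasi-likelihood test. The 95% intervals were built from this SE with a t quantile. Positions are from GENCODE M21. Named are all members, up to 3 genes of each pathway list by adjusted p with Ifnb1, Ifngr1, Ifngr2, Jak2 and Socs1, and the 3 genes most like each inducible member. The others are examples chosen after their values were seen. Members and lists were chosen with earlier results of these data known. Some genes of the rule and the lists are not reported here.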

Additional observations from a re-analysis of the deposited data

Results flagged for a closer look

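The change from day 1 to day 3 differed between the genotypes by a test of the difference itself for 4 of the 9 genes, where 0.95% of all genes tested were called lower and 1.12% in either direction. The difference on the log2 scale (Bcl3-/- minus WT) was -3.05 for Usp18, -3.02 for Irf7, -1.70 for Stat2 and -1.70 for Irf9, with edgeR adjusted p-values of 0.0357, 0.0396, 0.0335 and 0.0499. None of these calls was made in 10 of the 12 edgeR analyses that left out 1 library, nor by limma on log2(FPKM + 1) without a filter on FPKM. In each of the 3 WT cultures these genes rose, by ratios of at least 2.63. In the cultures labelled Bcl3-/- the ratios ran from 0.746 (Usp18) to 2.51 (Irf7).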

How the results depend on the processing

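For the 9 genes in 5 comparisons, 999 values were recomputed under alternatives, of which 892 kept their direction and side of the threshold, 76 fell short of it, 9 newly passed it and 22 changed sign. The day 1 calls of Stat2, Irf7, Irf9 and Usp18, and their calls over time in WT, were kept under every alternative run. Leaving out each library in turn gave 0 to 1 genes called higher between genotypes on day 3, 0 to 1 called lower over time in WT, 1 to 3 called higher over time in Bcl3-/- and 0 to 4 called lower in the interaction. DESeq2 called 1 gene higher on day 3. Over time in WT, 1 gene was called lower with the replicate block by culture, and 1 with limma on log2(FPKM + 1), on log2(FPKM + 0.1) and after an FPKM filter. Over time in Bcl3-/-, 0 genes were called higher with limma on log2(FPKM + 1) or log2(FPKM + 0.1), 1 after the FPKM filter, and 0 when an absolute log2 fold change over 1 was also asked for. In the interaction, 0 genes were called lower with limma on log2(FPKM + 1) or log2(FPKM + 0.1). The cause of these differences was not tested. The share of all genes called in the interaction ran from 0.006 to 2.84% over the alternatives. Beside the calls of Jak1 and Irf1 given above, the replicate block by culture changed no other call. The block by replicate number between genotypes, where the numbers pair nothing (correlations -0.06 to 0.21), gave 4 and 0 genes called higher on days 1 and 3. The sign changed only for genes that were not called. For time in WT, Ifnar1 gave -0.0479 and -0.0494 and Tyk2 -0.0669 and -0.0751 with limma on log2(FPKM + 1), with or without the filter, and log2(FPKM + 0.1). For the interaction, Ifnar2 gave -0.0152 with no count filter and -0.0224 and -0.0247 with these limma fits. With single libraries left out, Jak1 on day 1 ran from -0.0828 to 0.00496, Ifnar1 on day 3 from -0.00615 to 0.113, Tyk2 on day 3 from -0.203 to 0.00352, and over time Ifnar1 in WT from -0.0304 to 0.0702, Tyk2 in WT from -0.0652 to 0.141, Ifnar1 in Bcl3-/- from -0.0941 to 0.0243 and Jak1 in Bcl3-/- from -0.168 to 0.00129. In the interaction Ifnar1 ran from -0.121 to 0.012 and Ifnar2 from -0.0417 to 0.091. For the genes that were not called, a difference as large as the 95% interval allows could have been missed with 3 libraries per group.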
